A study of Mus musculus with 7 samples.

Results

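The genes described here are 10 mouse genes whose products build, lengthen or desaturate fatty acids, taken as a fixed list by symbol from the 49315 gene identifiers counted in each library. They comprise 6 elongases (Elovl1, Elovl2, Elovl4, Elovl5, Elovl6 and Elovl7), 3 desaturases (Scd1, Scd2 and Fads1) and the fatty acid synthase Fasn. All 10 were found and all 10 passed the filter on low counts, as did 18352 genes in all. RNA-seq was performed on primary oligodendroglia from mouse brain that were kept in differentiating SATO medium for 6 days. The 4 control cultures came from wildtype mice (Klf13-wt) and the 3 Klf13 knockout cultures (Klf13-ko) from pups in which Klf13 is deleted constitutively, in all tissues and not only in oligodendrocytes. The animals were newborns of either sex, and OPC were shaken off mixed glia and depleted of microglia. Strain is not given in the sources used here, and the cultures are labelled as biological replicates without saying whether each came from its own litter, so that p-values measure the spread between these cultures.

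Fatty acid synthase makes palmitate from malonyl-CoA in the cytosol. Elongases of the Elovl family carry out the condensing, rate-limiting step of a cycle in the endoplasmic reticulum that lengthens acyl chains, and each has its own preferred substrates. Stearoyl-CoA desaturases introduce a double bond into saturated chains, and Fads1 inserts one into polyunsaturated chains. Oligodendrocytes draw on these enzymes because myelin is rich in lipids, among them galactolipids and sphingomyelins with very long saturated and monounsaturated acyl chains.

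Library totals ranged from 24507471 to 59596479 counts on genes. Klf13 had 10669.9 to 11999.5 normalised counts in the controls and 802 to 961 in the knockouts, 7.76% of the control mean. Markers of mature oligodendrocytes were lower in the knockout for 12 of 12 genes, with summed levels (CPM per kb, that is counts scaled to library size and divided by transcript length) of 5049 to 5508 in the controls and 1527 to 1788 in the knockouts. In the same unit, the sum over 11 astrocyte markers ranged from 1089 to 1252 in the controls and from 1322 to 1506 in the knockouts, and 8 of them were higher by edgeR at the 0.05 level after adjustment. Sums over 12 neuron markers ranged from 82.1 to 100.3 and from 142 to 198, and 9 of these genes were higher. Of 10 markers of oligodendrocyte precursors 3 were higher (Vcan, Ptprz1 and Cacng4), with sums of 1278 to 1472 and 1278 to 1544. This list includes Olig1, Olig2 and Sox10, of which the authors used SOX10 and OLIG2 as markers of the lineage. Olig1 had the largest part of the sum, with mean levels of 540 in the controls and 503 in the knockouts. Olig1, Olig2 and Sox10 did not pass. Control replicate 3 stood apart with a sum of 1399 over 10 microglia markers, against 314 to 641 in the other 6 libraries, and control replicates 3 and 4 held the highest sums over 10 fibroblast and mural cell markers, 280 and 223, against 50.3 to 103 elsewhere. Of 9 tested fibroblast and mural cell genes 1 was lower by edgeR, 6 by DESeq2 and 0 by limma-voom, and 6 were lower at an unadjusted p of 0.05. Of the 10 microglia markers 0 passed by edgeR, DESeq2 or limma-voom, and 0 had an unadjusted p under 0.05. Endothelial markers summed to at most 3.33 in any library, with 1 of 4 tested genes lower. None of the microglia, astrocyte or fibroblast and mural cell markers was at 0 in any library. Counts from bulk cultures do not tell fewer cells of a type from less RNA per cell.

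The fatty acid genes did not all move in 1 direction. By edgeR's quasi-likelihood test at the 0.05 level, adjusted over all 18352 tested genes, Elovl1, Elovl7 and Scd2 were lower in the knockout and Elovl2 was higher. The other 6 did not pass. These are 3 of 10 lower and 1 of 10 higher, where 12.2% of all tested genes were lower and 11.6% were higher, or 4 of 10 against 23.8% in either direction. When a 2-fold change (log2 of 1) was required as well, Elovl1 was called lower and Elovl2 higher, where 3.08% and 3.97% of all tested genes were called. Both groups were free of overlap for Elovl1, Elovl7 and Scd2 on the lower side and for Elovl2 and Fads1 on the higher side, where 18.0% and 18.3% of all tested genes showed none, or 36.2% in either direction. The median log2 fold change over the 10 genes was -0.28, against -0.0037 over all tested genes. Which genes are counted depended on single libraries. Without control replicate 3, the library with the high microglia markers, 5 of the 10 genes were lower, and without control replicates 3 and 4 it was 6. The lower markers of mature oligodendrocytes moved with the lower genes, and the part of this and of the other marker differences in the results was not tested.

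**Figure D1:**
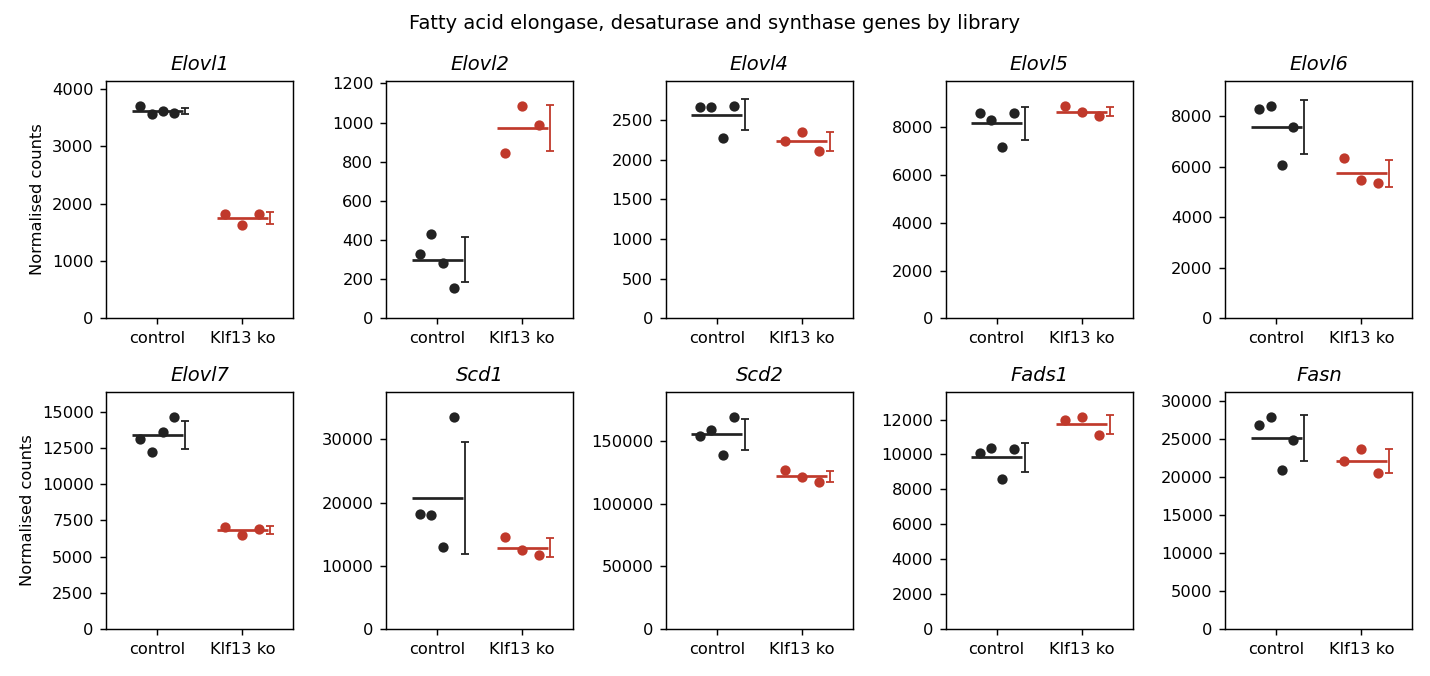
Normalised counts of each of the 10 genes (vertical axes, starting at 0) in the 4 control and the 3 Klf13 knockout libraries. Points are libraries, horizontal lines are group means and bars are 1 SD. Elovl1 and Elovl7 lie far below the controls in all 3 knockout libraries, Elovl2 lies above them, and 1 control library of Scd1 reaches 33531.

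**Figure D2:**
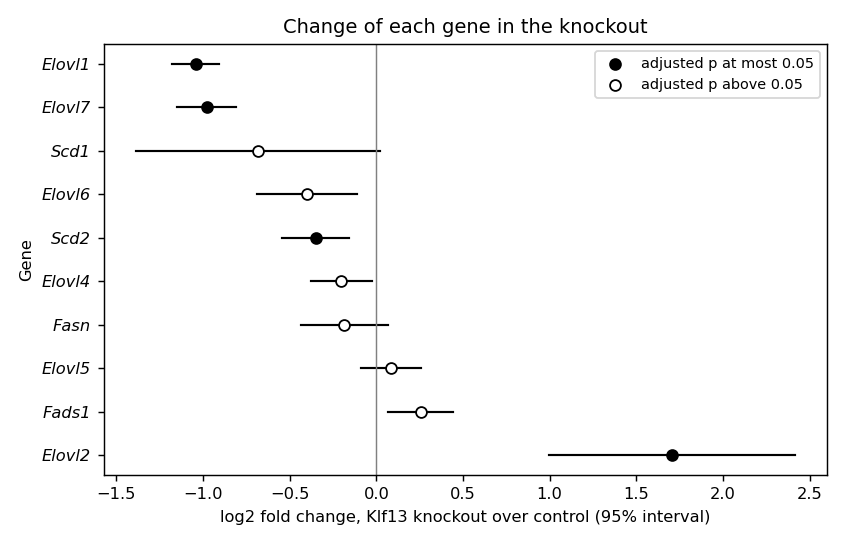
Log2 fold change of the knockout over the control (horizontal axis) for the 10 genes, ordered by value, with 95% intervals from edgeR's quasi-likelihood fit. Filled points passed an adjusted p of 0.05, and the values run from -1.04 for Elovl1 to 1.70 for Elovl2.

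Elovl1, which lengthens saturated and monounsaturated chains to the very long species used in sphingolipids, showed the lowest log2 fold change of the 10. It lies on chromosome 4 of GRCm38 from 118428093 to 118432953. The controls held 3698, 3566, 3612 and 3589 normalised counts and the knockouts 1816, 1631 and 1816. The controls differed among each other by a coefficient of variation of 1.6%, and the groups did not overlap. Knockouts averaged 48.5% of the controls, a log2 fold change of -1.04 (SE 0.057, edgeR adjusted p = 6.2e-05). Over all 18 alternative settings the log2 fold change stayed between -1.08 and -0.98. The call at a log2 fold change of 1 was thus lost where libraries were scaled without the 100 highest genes and without knockout replicate 2, where it was -0.98 and -0.99, while the adjusted p of Elovl1 was at most 0.0011 in all of these tests by edgeR, DESeq2 and limma.

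Elovl7, an elongase of saturated and some polyunsaturated acyl-CoAs, also fell, from a higher level. It lies on chromosome 13 from 108214404 to 108287105. Its normalised counts were 13144, 12255, 13601 and 14639 in the controls, against 7016, 6487 and 6928 in the knockouts. Every knockout library was below every control library, and knockouts averaged 50.8% of the controls. The log2 fold change was -0.98 (SE 0.073, 95% interval from -1.15 to -0.81, edgeR adjusted p = 0.00021), an interval that overlaps that of Elovl1 (-1.18 to -0.91). The ratio of Elovl7 to Elovl1 per transcript length was 1.86 ± 0.141 (SD, n = 4) in the controls and 1.95 ± 0.0419 (SD, n = 3) in the knockouts, with overlapping values.

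Elovl2 was the only one of the 10 to rise in the test as reported, while Fads1 also passed under 2 alternatives. The enzyme acts on long polyunsaturated chains and is needed to make docosahexaenoic acid. It lies on chromosome 13 from 41182495 to 41220405, on the other strand than Elovl7 and far from it. The controls held 329, 431, 281 and 154 normalised counts and the knockouts 845, 1083 and 989. All knockouts were above all controls, although the controls varied by 38.4%, with control replicate 4 the lowest. Knockouts averaged 3.25 times the controls, a log2 fold change of 1.70 (SE 0.30, edgeR adjusted p = 0.0086). It remained the least abundant of the 10 genes per transcript length in both groups, at 1.77 ± 0.679 CPM per kb in the controls and 5.74 ± 0.707 in the knockouts. Astrocytes are a known site of Elovl2 expression in the brain, and the summed astrocyte markers, as given above, were likewise higher in every knockout than in every control library, as were the summed neuron markers. Among the controls, replicate 4 had the lowest Elovl2 count and the highest astrocyte sum (1252). S100b made up 740 of that sum, against 432 to 519 in the other controls. In replicate 4, Gfap, Aqp4, Aldh1l1, Slc1a3 and Sox9 were at their lowest among the controls. S100b, Gjb6, Aldoc and Fgfr3 were at their highest there, and Slc1a2 and Gja1 lay between. Of the 11 astrocyte markers, 9 lay above the controls in every knockout, and 8 passed as higher by edgeR. S100b was singled out after its values were seen and had the highest mean level of the list in the controls. It alone was below the controls in every knockout, with 28202 normalised counts in the lowest control and 28044 in the highest knockout. Its log2 fold change of -0.54 did not pass the test (edgeR adjusted p = 0.092). The part of either cell type in the rise of Elovl2 was not tested.

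The other 3 elongases did not pass the test. Elovl5, which elongates polyunsaturated chains, lies on chromosome 9 from 77917364 to 77984519 and had 8609, 8324, 7168 and 8617 normalised counts in the controls, against 8881, 8647 and 8472 in the knockouts. These values overlap, and the log2 fold change of 0.08 has a 95% interval from -0.09 to 0.26, so that a decrease of the size seen for Elovl1 or Elovl7 lies outside it. Elovl4, which makes chains of extreme length, lies on chromosome 9 from 83778692 to 83806277, on the other strand. It had 2659, 2661, 2277 and 2670 normalised counts in the controls, against 2232, 2343 and 2111 in the knockouts. Control replicate 3 fell among the knockouts and the other controls lay above them. Its log2 fold change was -0.20 (edgeR adjusted p = 0.092), and without control replicate 3 it was -0.26 (edgeR adjusted p = 0.026).

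Elovl6 lengthens palmitate to stearate and thus follows Fasn directly. It lies on chromosome 3 from 129532355 to 129638495. Its normalised counts were 8281, 8376, 6041 and 7550.1 in the controls, against 6349.7, 5477 and 5367 in the knockouts. Again the lowest control was replicate 3, below the highest knockout. The log2 fold change of -0.40 (95% interval from -0.69 to -0.11) had an edgeR adjusted p of 0.054. It passed with the replicate number as a block (-0.39, edgeR adjusted p = 0.043), a fit to whose group difference control replicate 4 does not contribute because it has no partner. It also passed in DESeq2's Wald test (adjusted p = 0.029), without control replicate 3 (-0.50, edgeR adjusted p = 0.0098) and without control replicates 3 and 4 (-0.54, edgeR adjusted p = 0.013). In the other 14 of 18 alternatives it did not pass, with an edgeR adjusted p of up to 0.157 without knockout replicate 2.

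The composition of the elongase transcript pool also differed between the groups, a comparison of values without a test. Per transcript length, the 6 elongases summed to 187 ± 9.52 CPM per kb in the controls (SD, n = 4) and to 142 ± 3.66 in the knockouts (SD, n = 3). Elovl7 held 30.1% ± 2.5 of this sum in the controls and 20.1% ± 0.691 in the knockouts. For Elovl1 the shares were 16.2% ± 0.844 and 10.3% ± 0.570. Elovl5 took 28.2% ± 1.03 and 39.5% ± 0.384, which makes it the leading elongase in all 3 knockout libraries, whereas in the controls it was close to Elovl7. The share of Elovl2 was 0.949% ± 0.368 and 4.06% ± 0.587, and that of Elovl4 was 10.3% ± 0.342 and 11.8% ± 0.668, also without overlap. Elovl6 held 14.3% in both groups. Shares and ratios within a library do not depend on how libraries are scaled to each other, and a share can be higher without a rise of the gene itself. The ratio of Elovl1 to Elovl5 was 0.538 to 0.651 in the controls and 0.244 to 0.277 in the knockouts, without overlap.

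**Figure D3:**
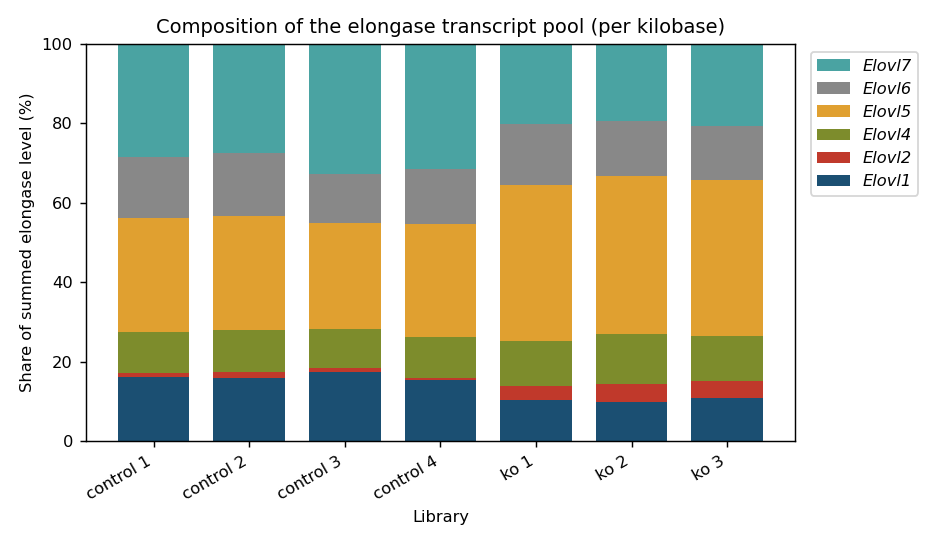
Share of each elongase in the summed elongase level (CPM per kb, vertical axis in percent) in each of the 7 libraries (horizontal axis). Elovl1 and Elovl7 take smaller shares in the 3 knockout libraries and Elovl5, Elovl4 and Elovl2 larger ones.

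To show what lies in front of the elongases that moved and of one that did not pass the test, the 250 bases before the annotated start are printed below for Elovl1 (chr4:118427843-118428092, plus strand), Elovl7 (chr13:108214154-108214403, plus strand), Elovl2 (chr13:41220404-41220653, minus strand) and Elovl5 (chr9:77917115-77917364, plus strand), from RefSeq on GRCm38.p6. Capitals mark every GGGCGG or CACCC on either strand. Krüppel-like factors such as Klf13 are known to recognise GC-rich boxes and CACCC boxes of this kind.
Elovl1: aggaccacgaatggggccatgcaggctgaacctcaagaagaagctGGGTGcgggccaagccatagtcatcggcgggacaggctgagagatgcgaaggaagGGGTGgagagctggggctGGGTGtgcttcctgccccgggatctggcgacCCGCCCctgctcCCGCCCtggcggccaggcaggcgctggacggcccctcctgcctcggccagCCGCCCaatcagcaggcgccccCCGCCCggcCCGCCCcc
Elovl7: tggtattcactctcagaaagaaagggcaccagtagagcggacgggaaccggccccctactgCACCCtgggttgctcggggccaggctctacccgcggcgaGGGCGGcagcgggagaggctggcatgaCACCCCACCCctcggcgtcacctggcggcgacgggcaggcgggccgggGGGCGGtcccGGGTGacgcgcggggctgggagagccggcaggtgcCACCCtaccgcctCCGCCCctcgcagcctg
Elovl2: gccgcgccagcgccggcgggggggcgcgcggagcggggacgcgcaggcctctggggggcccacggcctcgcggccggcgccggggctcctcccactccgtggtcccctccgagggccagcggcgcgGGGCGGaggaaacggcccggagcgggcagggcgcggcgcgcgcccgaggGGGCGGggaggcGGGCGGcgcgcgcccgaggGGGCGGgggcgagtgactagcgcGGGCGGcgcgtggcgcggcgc
Elovl5: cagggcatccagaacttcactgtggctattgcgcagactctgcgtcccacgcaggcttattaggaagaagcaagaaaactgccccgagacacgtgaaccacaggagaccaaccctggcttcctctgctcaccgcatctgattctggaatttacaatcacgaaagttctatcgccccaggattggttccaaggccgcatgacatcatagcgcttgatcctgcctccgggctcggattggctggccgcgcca
Elovl1 held 5 matches to GGGCGG and 3 to CACCC, and Elovl7 held 3 and 5. Elovl2, the gene that rose, held 5 matches to GGGCGG and 0 to CACCC, and Elovl5 held 0 of either. Promoters were found for 7 of the 10 genes, of which 4 contained GGGCGG and 3 contained CACCC, against 32.7% and 52.0% of all 32851 promoter windows of this length. The windows of Elovl1, Elovl7 and Elovl2 were rich in G and C, at 72%, 73.6% and 87.2%, and those of Elovl4 and Fasn, which did not pass the test, had 69.6% and 69.2%, with 2 matches to GGGCGG in Elovl4 and 2 to CACCC in Fasn. Elovl5 and Elovl6 had 55.6% and 56.4%, and the median of all windows was 52.4%. A sterol regulatory element (TCACNCCAC) was found in 0 of the 7 windows and in 1.1% of all windows, a CCAAT box in 3 of the 7 and in 33.8%, and ACAAAG, a motif of Sox factors, in 0 of the 7 and in 16.5%. Matches were counted on both strands and may overlap. They describe the letters of these windows and do not show binding.

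Among the desaturases, Scd2 dominated. Stearoyl-CoA desaturases convert stearate and palmitate into oleate and palmitoleate, and Scd2 is the main brain form. Scd2 lies on chromosome 19 from 44293676 to 44306864 and had 154090, 159113, 139372 and 169285 normalised counts in the controls, against 126820, 121462 and 117781 in the knockouts. All knockouts were below all controls, by a smaller margin than for Elovl1 and Elovl7. Knockouts averaged 78.5% of the controls, a log2 fold change of -0.35 (SE 0.083, edgeR adjusted p = 0.022). Its call was lost in 8 of 18 alternatives. With the replicate number as a block, to which control replicate 4 does not contribute, the log2 fold change was -0.30 (edgeR adjusted p = 0.0504), and without control replicate 1 or knockout replicate 1, 2 or 3 the adjusted p by edgeR was 0.058, 0.071, 0.079 and 0.092. It was 0.057 with upper quartile factors, 0.051 with total counts and 0.061 with library sizes without the 100 highest genes.

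Scd1, on the same chromosome from 44394451 to 44407709, had 18169.7, 18028, 13023 and 33531 normalised counts in the controls, against 14478, 12527 and 11664 in the knockouts. Control replicate 4 was far above all other libraries, and control replicate 3 lay among the knockouts. The log2 fold change of -0.68 had a 95% interval from -1.38 to 0.02 (edgeR adjusted p = 0.15). Without control replicate 4 it was -0.33 (edgeR adjusted p = 0.18). Without control replicates 3 and 4 it was -0.49 (edgeR adjusted p = 0.025). Per transcript length, Scd2 exceeded Scd1 by a factor of 4.48 to 9.49 in the controls and 7.77 to 8.96 in the knockouts. Of all 100-base windows in the transcripts of Scd1, 2.58% also occur in transcripts of other genes, Scd2 among them, and 0.879% for Scd2.

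Fads1, the delta-5 desaturase of polyunsaturated chains, lies on chromosome 19 from 10182888 to 10196870. It had 10063, 10372, 8569 and 10306 normalised counts in the controls, against 11954, 12136 and 11093 in the knockouts. The groups did not overlap, with the knockout mean at 119% of the control mean. The log2 fold change of 0.25 (95% interval from 0.07 to 0.44) had an edgeR adjusted p of 0.055, and with the replicate block the values were 0.28 and 0.031, in which control replicate 4 again has no partner. Fads2, the delta-6 desaturase of the same pathway, was not in the list of 10. It held 7747, 8828, 6751 and 6731 normalised counts in the controls, against 10119.5, 12695 and 9826 in the knockouts, without overlap, a log2 fold change of 0.53 (edgeR adjusted p = 0.023). Its call was lost without knockout replicate 2 (edgeR adjusted p = 0.077) and without control replicates 3 and 4 (0.111).

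Fasn, on chromosome 11 from 120805846 to 120824547, had 26852, 27867, 20915 and 24855 normalised counts in the controls, against 22043, 23738 and 20530 in the knockouts. The groups overlapped, with control replicate 3 again the lowest control. Its log2 fold change was -0.18 with a 95% interval from -0.44 to 0.07 (edgeR adjusted p = 0.26). Without control replicates 3 and 4 it was -0.31 (edgeR adjusted p = 0.048).

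Levels per transcript length were ordered alike in both groups at the top and the bottom but not between. In the controls Scd2 led with 649 ± 52.0 CPM per kb (SD, n = 4), followed by Scd1 with 97.3 ± 41.8 and Fads1 with 64.7 ± 5.59. Elovl7 (56.1 ± 4.15), Elovl5 (52.8 ± 4.45) and Fasn (52.2 ± 6.38) came next and overlapped with their neighbours. Below these stood Elovl1 (30.2 ± 0.483), Elovl6 (26.8 ± 3.82), Elovl4 (19.3 ± 1.45) and Elovl2. In the knockouts Scd2 led with 509 ± 19.0 (SD, n = 3), but Fads1 (77.2 ± 3.67) was above Scd1 (60.7 ± 6.78), and Elovl5 (56.0 ± 1.33) and Fasn (45.9 ± 3.34) were above Elovl7 (28.5 ± 1.19). Elovl1 (14.6 ± 0.893) came after Elovl6 (20.3 ± 1.91) and Elovl4 (16.8 ± 0.870). Only Scd1 and Elovl5 overlapped with each other among the neighbours in the knockout order.

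**Figure D4:**
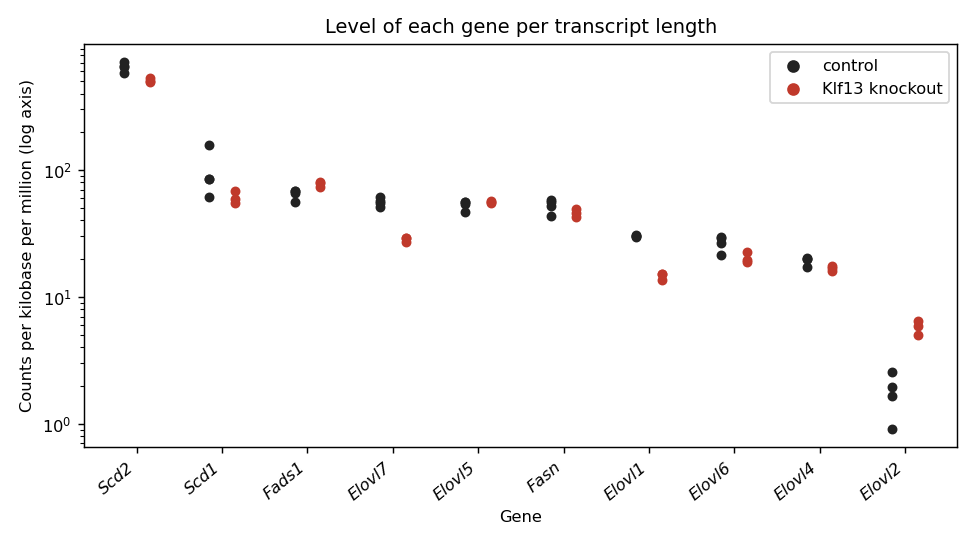
Level of each gene in CPM per kb (vertical log axis) in the 4 control and 3 Klf13 knockout libraries, with genes ordered by their control mean. Scd2 stands above all others and Elovl2 below all others in both groups, and Elovl7 and Elovl1 lose ranks in the knockout.

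The enzymes that complete the elongation cycle were examined next. Of 72 further genes of fatty acid metabolism that were listed for comparison, 71 were found and 68 tested, of which edgeR called 14 lower and 4 higher after adjustment. That is 20.6% and 5.88% of those tested, against 12.2% and 11.6% of all tested genes, and their median log2 fold change was -0.13. Among partners of the elongation cycle 2 of 6 were lower, among electron donors of the desaturases 2 of 6, and among users of very long acyl chains 4 of 10, with 0 higher in each. Of 6 acyl-CoA synthetases 2 were lower and 1 higher, of 7 binding and uptake proteins 3 and 1, and of 8 genes of acetyl-CoA and malonyl-CoA supply 1 and 1. Of 5 other elongase and desaturase genes, Fads2 was higher. Hsd17b12, the ketoacyl-CoA reductase that serves every Elovl enzyme, was lower, with 10433, 10845, 11866 and 11895 normalised counts in the controls, against 7104, 6555 and 6891 in the knockouts. The knockouts did not overlap with the controls, and the log2 fold change was -0.72 (SE 0.068, edgeR adjusted p = 0.00065). Hacd1, a dehydratase of the cycle, was lower by a log2 fold change of -0.38 (edgeR adjusted p = 0.019), and lost its call with the replicate block, without control replicates 3 and 4 and without knockout replicate 2 or 3 (adjusted p = 0.0504, 0.085, 0.073 and 0.077). Tecr, the reductase of the last step, had 10754 ± 786 normalised counts in the controls and 9791 ± 705 in the knockouts (SD, n = 4 and 3), a log2 fold change of -0.14 (edgeR adjusted p = 0.27).

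Among the genes of precursor supply, Acly and Acaca, which provide acetyl-CoA and malonyl-CoA for Fasn and the elongases, had log2 fold changes of -0.08 and -0.26 (edgeR adjusted p = 0.47 and 0.067). Acacb, the mitochondrial isoform of the carboxylase, was lower by a log2 fold change of -0.74 (edgeR adjusted p = 0.045), but it lost its call in 10 of 18 alternatives, with an adjusted p of 0.13 without knockout replicate 3 and 0.056 with the block. Acss1, which activates acetate in mitochondria, was higher, with 1943 ± 310 normalised counts in the controls and 3205 ± 338 in the knockouts (SD, n = 4 and 3).

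Other calls were among genes that handle fatty acids after their synthesis. Acsl1, an acyl-CoA synthetase, was lower at 55.3% of the control mean. Cers2, the ceramide synthase for very long acyl chains, had 10973, 11108, 11373 and 10352 normalised counts in the controls, against 6012, 5322 and 5522 in the knockouts, a log2 fold change of -0.96 (SE 0.063, edgeR adjusted p = 0.00013). Fa2h, which hydroxylates the fatty acids of myelin galactolipids, was lower at 54.0% of the control mean (log2 fold change -0.89). Both enzymes act on the acyl chains of sphingolipids. The fatty acid binding proteins moved in opposite directions. Fabp5 was lower at 61.9% of the control mean, whereas Fabp7, a protein of progenitors and astrocytes, had 24485, 25499.8, 19945 and 13818 normalised counts in the controls, against 44464, 45700.1 and 42706 in the knockouts, a log2 fold change of 1.08 (edgeR adjusted p = 0.0088). Cyb5a, a cytochrome that passes electrons to desaturases, was lower at 63.7% of the control mean. These genes, with Hsd17b12 and Acss1, are the 8 of the 18 that passed under every alternative. The other 10 lost their call under 1 or more of the 18 alternatives. Besides Hacd1, Fads2 and Acacb these included Cyb5r2, Acsl4, Slc27a4, Slc27a6 and Cers5 on the lower side, with log2 fold changes of -1.48, -0.32, -0.40, -1.09 and -0.18, and Acsl6 on the higher side with 0.62. In the same order, they lost the call in 6, 9, 7, 1, 13 and 4 of 18 alternatives. With 1 library left out, each did so at least once, with edgeR adjusted p of up to 0.123, 0.133, 0.142, 0.0535, 0.163 and 0.0960. Cyb5r2, which is among the lower electron donors, rested on few reads, with 21 to 43 raw counts in the controls and 10 to 16 in the knockouts.

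**Figure D5:**
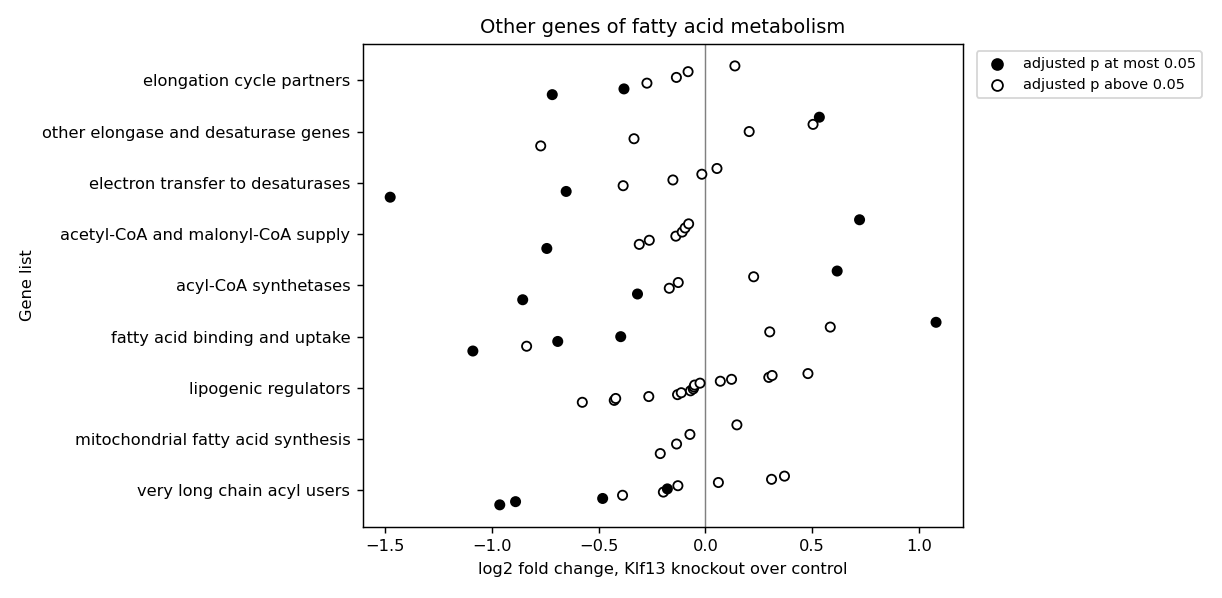
Log2 fold change of the knockout over the control (horizontal axis) for the 68 tested genes of 9 lists of fatty acid metabolism (vertical axis). Each point is 1 gene and filled points passed an adjusted p of 0.05, which were 14 lower and 4 higher genes, with none of them among the lipogenic regulators or the genes of mitochondrial fatty acid synthesis.

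Of 16 lipogenic regulators, the factors that set the activity of these genes, 0 passed by edgeR after adjustment, 1 was lower at an unadjusted p of 0.05, and DESeq2 and limma-voom gave 1 and 0. The gene concerned, Insig1, was singled out after its values were seen and had a log2 fold change of -0.43, which passed with the replicate block (edgeR adjusted p = 0.037). Srebf1 had 2559, 2449, 3235 and 3257 normalised counts in the controls, against 2948, 3121 and 2986 in the knockouts. The log2 fold changes of Srebf1 and Srebf2 were 0.07 and -0.05, and Srebf2 changed sign under 4 settings. Srebf1 was at 0.00 without control replicate 2 and passed without control replicates 3 and 4, at 0.27 (edgeR adjusted p = 0.041). Of 4 tested genes of mitochondrial fatty acid synthesis, 0 passed by edgeR, DESeq2 or limma-voom and 0 had an unadjusted p of at most 0.05.

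For the gene with the highest level and those with the lowest and the highest log2 fold change, the tested genes with the most similar pattern were looked up by Pearson correlation of log2 CPM over the 7 libraries. Such values carry differences between the groups as well as those within them and are given as a description. Scd2 was closest to Mut, Gm26616 and Suco (0.997, 0.996 and 0.995), Elovl1 to Secisbp2l, Strn and Tnni1 (0.999 each), and Elovl2 to 9630028B13Rik, 2900052N01Rik and Raver2 (0.999, 0.998 and 0.998).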

How the data were processed

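RNA from 7 cultures was sequenced by the authors in paired-end mode, 1 library per culture. As stated in the methods and the submitters' processing notes, the authors trimmed reads with Trimmomatic 0.36, mapped them to a mouse genome of ENSEMBL (GRCm38) with STAR 2.5.2b and used Subread 1.5.2 to count uniquely mapped reads in exons. The deposited values are whole-number counts per gene without normalization. Annotation release and strand setting are not given in the sources used here. Exons of Elovl1, Elovl6 and Scd2 overlap those of another gene by 53, 34 and 61 bases.

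The analysis used edgeR 4.0.16 under R 4.3.3: filterByExpr by group, TMM factors and a robust quasi-likelihood fit with group as its only term, adjusted by the Benjamini-Hochberg method over 18352 genes. The standard error is the log2 fold change divided by the root of F. Normalised counts express each library at the mean TMM-scaled library size. Levels per length used the gene lengths in the files. A count of 0 would allow up to 3 counts. The fits were tested on data simulated with edgeR's own dispersion estimates, in which DESeq2 called more unchanged genes than edgeR or limma did. The bound set for such calls was raised for DESeq2 after that outcome was seen. As this setting may favour edgeR, it does not rank the tools on the real data. Whether calls by DESeq2 alone are less reliable here was not tested. Replicates of a group differed by far more than sampling noise. Members and lists were chosen with earlier results of these data known. Genes named by rule are the 10 members, Klf13, up to 4 passing genes per list by mean count, 7 fixed pathway genes and the 3 genes most similar to each of 3 members. Cell type markers named one by one were picked after their values were seen. Protein motifs were not analysed here, and 1 gene that met the rule is not reported here. Deviations from the group means of libraries with the same replicate number correlated at 0.11, 0.46 and 0.17 over all tested genes, and those with different numbers at -0.53 to 0.20, so that some unmatched libraries correlated as much. As each same-number value was above 0.1, the number was also fitted as a block. Alternatives were DESeq2 1.42.0, limma 3.58.1 (voom), other scalings and filters, the block, the share of counts on Gm42418, Gm23935 and Lars2 (6.03% to 18.0%) as covariate, and fewer libraries.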

Additional observations from a re-analysis of the deposited data

Results flagged for a closer look

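In 34 genes (the 10 members, Klf13 and 23 pathway genes), the 4 control libraries were searched for a library far from the others by Dixon's criterion, which chance meets in about 1 of 20 groups, and 3 were found. Elovl4 was low in control replicate 3, with 2277 normalised counts against 2659 to 2670 in the other controls. Tecr was low in the same library, with 9579 normalised counts. Acsl4 was high in control replicate 4, with 3134 normalised counts.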

How the results depend on the processing

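For the 10 genes, 163 of 180 combinations of gene and alternative kept the direction and the side of the threshold, 8 lost the call, all for Scd2, 9 gained one and 0 changed direction. Elovl1, Elovl2 and Elovl7 passed in all 18 alternatives. The number of lower genes among the 10 rose from 3 to 6 without control replicates 3 and 4 and ranged from 2 to 5 with 1 library left out, with 5 without control replicate 3. The number of higher genes rose from 1 to 2 with library sizes without the 100 highest genes and with the replicate block, in both cases through Fads1. At a log2 fold change of 1, the number of lower genes was 0 with library sizes without the 100 highest genes. It was 2 with the share of counts on Gm42418, Gm23935 and Lars2 as covariate. With 1 library left out it was 0 to 2 (0 without knockout replicate 2, 2 without control replicate 2). Among the pathway genes, 7 to 14 were lower and 2 to 7 higher with 1 library left out, against 14 and 4. The lower count was 9 without control replicate 4 and 7, 8 and 7 without knockout replicates 1, 2 and 3, and the higher count was 7 without control replicate 3 and 2 without knockout replicate 2. Over all genes, 729 higher genes were called, against 377 without control replicates 3 and 4 and 335 to 810 with 1 library left out (335 without knockout replicate 2). At an adjusted p of 0.05 alone, 2246 genes were lower and 2122 higher, and with 1 library left out 1254 to 2032 and 850 to 1843. The counts were 1254 and 1209 without knockout replicate 1, 1317 and 850 without knockout replicate 2, and 1489 and 1177 without control replicates 3 and 4. Lower genes made up 51.4% of the calls, against 38.6% with library sizes without the 100 highest genes and 60.8% without knockout replicate 2. The replicate block changed the calls of Elovl6, Scd2, Fads1, Hacd1, Acacb, Cers5 and Insig1 and of no other gene of the members or pathway lists, and the causes of the changes were not tested. Control replicate 4 has no partner in that fit. The fewest counts behind any of the 10 genes in a library were 165, for Elovl2.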
